A study of Mus musculus with 12 samples.

Results

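The 35 genes described here encode collagens, laminins and the other proteins that build basement membranes and the matrix around vessels and meninges. They are a list of gene names with no measured value in its rule, although it was drawn up with earlier results of these data known, and all 35 of 35 were found among the 20776 genes of the deposited tables. By role they comprise 6 type IV collagen chains, 10 laminin chains, 6 linkers and proteoglycans, 8 fibrillar and type VI collagen chains, and 5 glycoproteins that are mostly found in interstitial matrix. RNA was sequenced from 2 cell fractions of the mouse cortex, taken 12 h after a cortical injury from a square of 3 by 3 mm around the wound. The astrocyte fraction was the cells that stuck to an Acsa-2 plate, and the immune fraction was the cells that stuck to a secondary-only plate and to a CD45 plate. Each fraction came from Sema4B+/- mice, which keep 1 allele of this transmembrane semaphorin and served as controls, and from Sema4B-/- mice. Every group of fraction and genotype held 3 libraries, all from injured cortex, so no uninjured tissue and no wild type entered any comparison. Mouse ages, strain and any pooling of animals are not given in the sources used here, and nothing states whether 1 animal gave 1 library. The p-values therefore reflect how far libraries differ, which may be technical.

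Basement membranes are thin sheets of matrix beneath endothelium, around mural cells, and beneath the astrocyte endfeet that wrap cerebral vessels. Laminins, each a trimer of an alpha, a beta and a gamma chain, assemble at the cell surface and bind integrins and dystroglycan. Type IV collagen forms a covalently crosslinked network, and nidogens and the heparan sulphate proteoglycans perlecan and agrin tie that network to the laminins. In brain, endothelial cells, mural cells, astrocytes and perivascular fibroblasts are all known to make parts of these sheets, while fibrillar collagens are largely products of meningeal and perivascular fibroblasts.

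The libraries held 13530229 to 15993564 reads in the astrocyte fraction and 11111965 to 15135960 reads in the immune fraction. Levels are given as CPM, reads relative to library totals that were scaled by TMM over all 12 libraries, and libraries are named by the number at the head of their deposited column. A floor of 3 reads corresponds to 0.188 to 0.222 CPM of unscaled totals in astrocyte libraries and to 0.198 to 0.270 CPM in immune libraries, for counting error only. Sema4b, the targeted gene, stood at 61.0 to 110.7 CPM in heterozygous and 27.7 to 58.3 CPM in knockout astrocyte libraries, and at 6.06 to 8.83 and 1.16 to 5.38 CPM in the immune libraries. Its levels were lower in the knockouts without overlap but were not 0, and which exons the allele lacks is not given in the sources used here. Astrocyte markers summed to 32950 to 37690 CPM in heterozygous astrocyte libraries against 739 to 830.3 CPM in heterozygous immune libraries. Microglial markers summed to 342.4 to 440.0 CPM in the first and 8257 to 10400 CPM in the second, so each fraction of heterozygotes carried the markers of its label. Markers of other cells were present too. In heterozygous astrocyte libraries oligodendrocyte markers summed to 2242 to 4947 CPM and neuron markers to 1797 to 2698 CPM. In knockout immune library 11 neuron markers, at 6508 CPM, exceeded microglial markers, at 4391 CPM.

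The type IV collagen genes lie in head-to-head pairs, and the promoters of the most abundant pair are printed because its 2 genes turned out among the highest of all members. The annotated 5′ ends of Col4a1 (chromosome 8, 11198423 to 11312826, minus strand) and Col4a2 (11312805 to 11449287, plus strand) overlap by 22 bases in GRCm38. Those of Col4a4 and Col4a3 on chromosome 1 lie 71 bases apart, and those of Col4a6 and Col4a5 on chromosome X lie 1308 bases apart. The RefSeq promoter windows on GRCm38.p6 run from 250 bases before to 50 bases after an annotated start, and 25 of the 35 members had at least 1. The windows of Col4a1 and Col4a2 share 78 bases, which read identically on opposite strands. Col4a4 is shown as the minus-strand gene of the second pair, and Col6a1 and Col5a1 as collagens of interstitial matrix that were at least as high in the immune fraction. Capitals mark each GC box (GGGCGG or, on the other strand, CCGCCC) and each CCAAT box (CCAAT or ATTGG).
Col4a1, chr8:11312777-11313076, minus strand: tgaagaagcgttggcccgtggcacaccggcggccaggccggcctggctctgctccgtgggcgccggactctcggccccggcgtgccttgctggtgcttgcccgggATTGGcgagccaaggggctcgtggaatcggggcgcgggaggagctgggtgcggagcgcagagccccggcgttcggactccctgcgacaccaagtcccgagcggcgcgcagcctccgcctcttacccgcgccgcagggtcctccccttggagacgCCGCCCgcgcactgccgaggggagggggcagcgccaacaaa
Col4a2, chr8:11312555-11312854, plus strand: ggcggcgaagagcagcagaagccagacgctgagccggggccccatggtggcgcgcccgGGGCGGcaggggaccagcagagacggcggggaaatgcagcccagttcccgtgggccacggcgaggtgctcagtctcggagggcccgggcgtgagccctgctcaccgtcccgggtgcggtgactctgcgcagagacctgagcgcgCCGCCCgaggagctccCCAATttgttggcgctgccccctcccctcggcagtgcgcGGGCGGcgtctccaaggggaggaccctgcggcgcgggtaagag
Col4a4, chr1:82586800-82587099, minus strand: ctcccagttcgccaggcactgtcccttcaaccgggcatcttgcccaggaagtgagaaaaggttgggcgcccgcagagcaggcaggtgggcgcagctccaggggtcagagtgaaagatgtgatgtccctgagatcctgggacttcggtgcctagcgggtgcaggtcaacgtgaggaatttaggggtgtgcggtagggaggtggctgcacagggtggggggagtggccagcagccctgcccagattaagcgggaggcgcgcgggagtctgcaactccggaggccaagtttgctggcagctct
Col6a1, chr10:76725995-76726294, minus strand: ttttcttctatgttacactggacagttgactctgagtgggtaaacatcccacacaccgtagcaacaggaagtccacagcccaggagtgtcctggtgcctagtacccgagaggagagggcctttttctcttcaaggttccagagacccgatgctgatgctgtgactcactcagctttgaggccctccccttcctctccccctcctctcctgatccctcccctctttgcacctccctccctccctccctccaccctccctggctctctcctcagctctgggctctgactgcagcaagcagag
Col5a1, chr2:27886175-27886474, plus strand: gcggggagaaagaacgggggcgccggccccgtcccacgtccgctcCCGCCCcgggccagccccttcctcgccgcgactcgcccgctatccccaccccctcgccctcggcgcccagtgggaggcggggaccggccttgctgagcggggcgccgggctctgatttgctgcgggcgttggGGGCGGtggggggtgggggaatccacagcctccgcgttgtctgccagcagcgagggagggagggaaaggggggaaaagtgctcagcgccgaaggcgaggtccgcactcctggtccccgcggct

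A GC box was found in a window of 17 of the 25 members, a CCAAT box in 8 and a TATA box (TATAAA or TTTATA) in 2. Over all 32851 promoter windows of the table, a GC box was present in 35.7%, a CCAAT box in 37.4% and a TATA box in 13.6%, counted per window and not per gene. The windows of Col4a4 and Col6a1 held neither of the boxes in capitals. A match of letters is a description and does not show that a factor binds there.

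Levels spanned more than 2 orders of magnitude among the 35 genes. In heterozygous astrocyte libraries 34 of 35 members averaged at least 1 CPM and 6 averaged at least 100 CPM, whereas in heterozygous immune libraries 25 averaged at least 1 CPM and 0 averaged at least 100 CPM. Set per kilobase of exon, Col4a1 was the highest member in the astrocyte fraction of heterozygotes, at 32.9 ± 5.04 CPM per kb (SD, n = 3). Col4a2 followed at 22.6 ± 3.59, the laminin beta chain gene Lamb2 at 16.8 ± 1.14, the laminin gamma chain gene Lamc1 at 14.1 ± 0.961 and the agrin gene Agrn at 13.8 ± 1.38 CPM per kb. Lamc1 and Agrn did not differ beyond their spread. In the immune fraction of heterozygotes the order was led by the fibronectin gene Fn1 at 7.94 ± 3.97 CPM per kb, then Agrn at 4.85 ± 0.382, Col4a2 at 3.28 ± 0.688, Col6a1 at 3.17 ± 0.517 and Col4a1 at 2.91 ± 0.942. The last 3 of these lay within each other's spread.

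**Figure D1:**
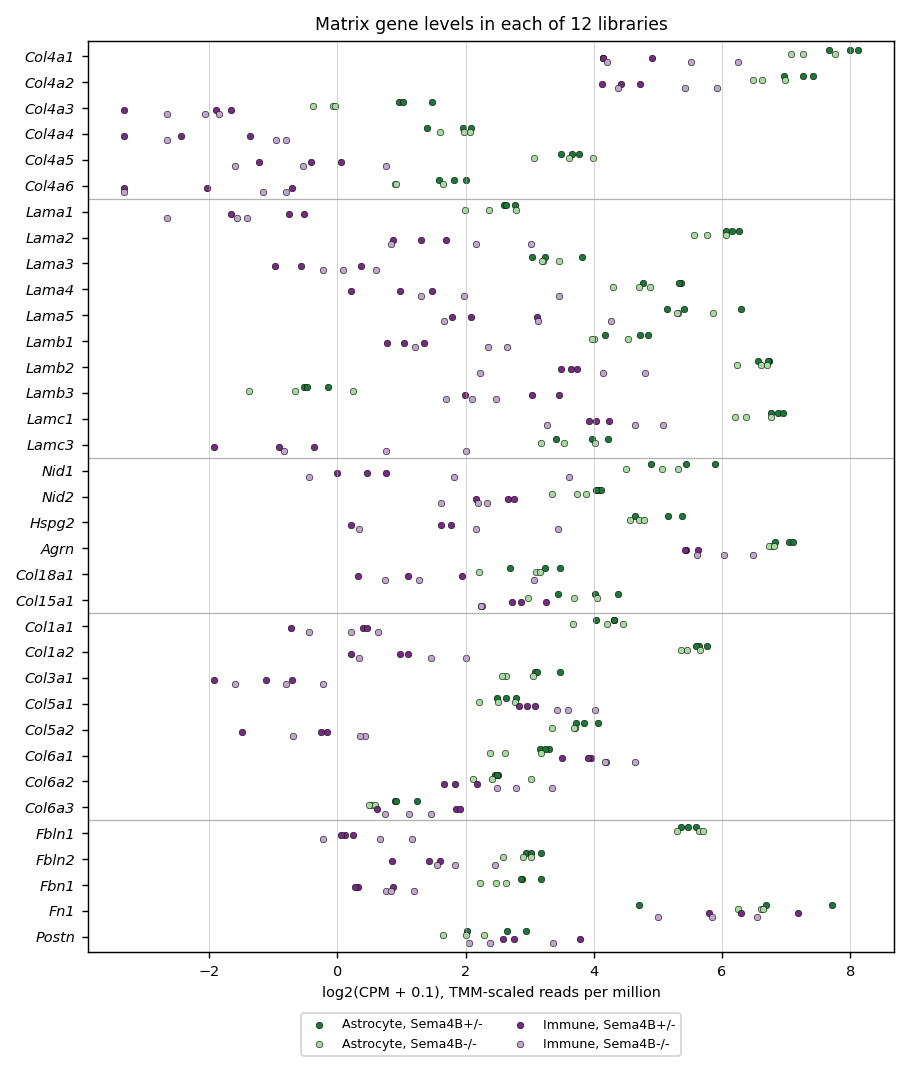
Level of each of the 35 members in each of the 12 libraries, as log2(CPM + 0.1) on the horizontal axis, with genes in rows grouped by role and points coloured by fraction and genotype. Most rows show the 6 astrocyte libraries to the right of the 6 immune libraries, while Lamb3, Col5a1, Col6a1, Col6a2, Col6a3, Col18a1, Fn1 and Postn are among the rows that do not.

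The comparison of the fractions within heterozygotes asked which matrix genes were higher in which fraction. Of the 35 members, 28 were higher in the astrocyte fraction, 2 were lower and 5 were not called (edgeR quasi-likelihood F test, Benjamini-Hochberg adjusted p under 0.05). Over all 16880 genes tested, 30.0% were called higher and 30.3% lower. The median log2 difference, astrocyte over immune, was 3.50 over the members against -0.04 over all genes tested. With Col4a3, which had at most 3 reads in every immune library, set at 3 reads in each of these, the members' median was 3.26. Other members with few immune reads, such as Col4a4 and Col4a6, kept their estimates in that median. In a bulk fraction, more cells of a type that makes a transcript and more of that transcript per cell cannot be told apart.

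All 6 type IV collagen genes were higher in the astrocyte fraction. Col4a1, whose chain pairs with that of Col4a2 in nearly all basement membranes, stood at 278, 204 and 256 CPM in heterozygous astrocyte libraries 2, 4 and 6, and at 17.7, 29.8 and 17.6 CPM in heterozygous immune libraries 1, 3 and 5. These values do not overlap, and the log2 difference was 3.50 ± 0.42 (SE; edgeR adjusted p = 7.84e-06). Col4a2 stood at 153, 124.5 and 172 CPM against 17.3, 26.4 and 21.3 CPM, a log2 difference of 2.79 ± 0.32 (edgeR adjusted p = 5.15e-06). The reads of Col4a1 were 1.49 to 1.82 times those of Col4a2 in the heterozygous astrocyte libraries and 0.825 to 1.13 times in the heterozygous immune libraries, so the ratio within the pair was higher in each of the former.

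The other type IV chains were far scarcer. Col4a5, which is mutated in human Alport syndrome together with Col4a3 and Col4a4, had 156, 149 and 197 reads in the heterozygous astrocyte libraries and 4, 9 and 11 in the immune ones, a log2 difference of 4.27 ± 0.50 (edgeR adjusted p = 6.07e-06). Col4a3 had 23, 26 and 39 reads against 0, 3 and 2, which is 9.02-fold higher when the immune libraries are set at the floor of 3 reads per library. The immune count of 3 equals that floor, so counting error could make this fold smaller. Col4a4 had 52, 34 and 55 reads against 0, 4 and 1, and Col4a6 had 49, 39 and 50 against 0, 2 and 6. These immune counts lie at or near the floor, so no fold is given for the last 2.

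Of the 10 laminin chain genes, 9 were higher in the astrocyte fraction and Lamb3 was lower. Lama2, the alpha chain of the laminin found under astrocyte endfeet and in muscle, stood at 77.2, 71.3 and 66.8 CPM in the heterozygous astrocyte libraries against 1.72, 2.38 and 3.15 CPM in the immune ones. Its log2 difference was 4.89 ± 0.42 (edgeR adjusted p = 3.36e-07). Lama4 and Lama5, the alpha chains of vascular laminins, differed by 4.25 ± 0.50 and 3.26 ± 0.55. The broadly used beta and gamma chain genes Lamb1, Lamb2 and Lamc1 differed by 3.58 ± 0.36, 3.06 ± 0.43 and 2.80 ± 0.34. Lama1 and Lama3 differed by 3.85 ± 0.40 and 3.85 ± 0.37, and Lamc3 by 5.11 ± 0.65. In the heterozygous immune libraries they had 3 to 7, 5 to 14 and 2 to 8 reads. The values of Lama1 and Lamc3 thus rest on counts near the floor.

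Lamb3, the beta chain of the laminin that anchors epithelia, went the other way. It had 10, 8 and 9 reads in heterozygous astrocyte libraries and 99, 54 and 128 reads in heterozygous immune libraries. The groups did not overlap, and the log2 difference was -3.49 ± 0.47 (edgeR adjusted p = 2.24e-05). In knockouts Lamb3 again had 4 to 15 astrocyte reads against 54 to 79 immune reads.

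All 6 linkers and proteoglycans were higher in the astrocyte fraction of heterozygotes. Nid1, the nidogen that bridges laminin and type IV collagen, stood at 43.3, 29.7 and 59.3 CPM against 0.899, 1.59 and 1.27 CPM, a log2 difference of 5.12 ± 0.74 (edgeR adjusted p = 4.66e-05). Its relative Nid2 differed by 1.54 ± 0.23. Hspg2, which encodes perlecan, differed by 3.79 ± 0.59. Agrn, whose product clusters receptors at synapses and lies in vascular basement membrane, differed by 1.502 ± 0.190 and was the second highest member per kb in the immune fraction. Col18a1, the precursor of endostatin, and its relative Col15a1 differed by 1.92 ± 0.57 and 1.03 ± 0.29.

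The fibrillar and type VI collagens split by chain. Col1a1, Col1a2, Col3a1 and Col5a2, chains of the banded fibrils of types I, III and V, were higher in the astrocyte fraction by log2 differences of 4.23 ± 0.35, 4.93 ± 0.34, 4.73 ± 0.40 and 4.58 ± 0.36. The values of Col3a1 and Col5a2 rest on 2 to 6 and 3 to 11 reads in the immune libraries, at or near the floor. Col1a2 stood at 54.4, 49.98 and 48.2 CPM against 1.06, 1.88 and 2.04 CPM. Col5a1, which pairs with Col5a2 in type V collagen, stood at 6.09, 6.77 and 5.51 CPM against 7.69, 7.00 and 8.33 CPM and was not called (-0.32 ± 0.22, edgeR adjusted p = 0.213). Col6a1, a chain of the beaded microfilaments of type VI collagen, was lower in the astrocyte fraction at 9.77, 8.85 and 9.37 CPM against 15.4, 11.3 and 14.96 CPM. That difference was -0.57 ± 0.23 (edgeR adjusted p = 0.0433), and it passed 0.05 by a margin that leaving out any of 7 libraries removed, with adjusted p between 0.0516 and 0.127. Col6a2 and Col6a3 were not called, at 0.60 ± 0.29 and -0.55 ± 0.35. Reads of Col6a1 were 1.63 to 1.74 times those of Col6a2 in heterozygous astrocyte libraries and 3.25 to 4.89 times in heterozygous immune libraries.

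Among the glycoproteins, Fbln1 had the largest log2 difference of all 35 members in heterozygotes, 5.46 ± 0.29 (edgeR adjusted p = 9.10e-09). It encodes fibulin-1, which binds laminin, nidogen and fibronectin, and stood at 48.1, 44.4 and 41.0 CPM against 0.981, 1.08 and 0.935 CPM. Fbn1, the microfibril protein fibrillin-1, and Fbln2 differed by 2.54 ± 0.26 and 1.75 ± 0.28. Fn1, whose product fibronectin is a matrix and plasma protein that monocytes and macrophages also make, was not called (0.28 ± 0.56, edgeR adjusted p = 0.685). Its levels were 103, 26.0 and 209 CPM in the astrocyte libraries and 78.2, 55.4 and 145 CPM in the immune libraries, so both groups were wide and overlapped. Without astrocyte library 6 the Fn1 difference turned to -0.52. Postn, which encodes periostin, was not called (-0.56 ± 0.40). Exons of Fbn1 overlap another gene over 20.1% of their length, those of Nid2 over 8.45%, of Lamc3 over 6.27% and of Col4a3 over 5.65%, and whether reads were counted by strand is not given in the sources used here.

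**Figure D2:**
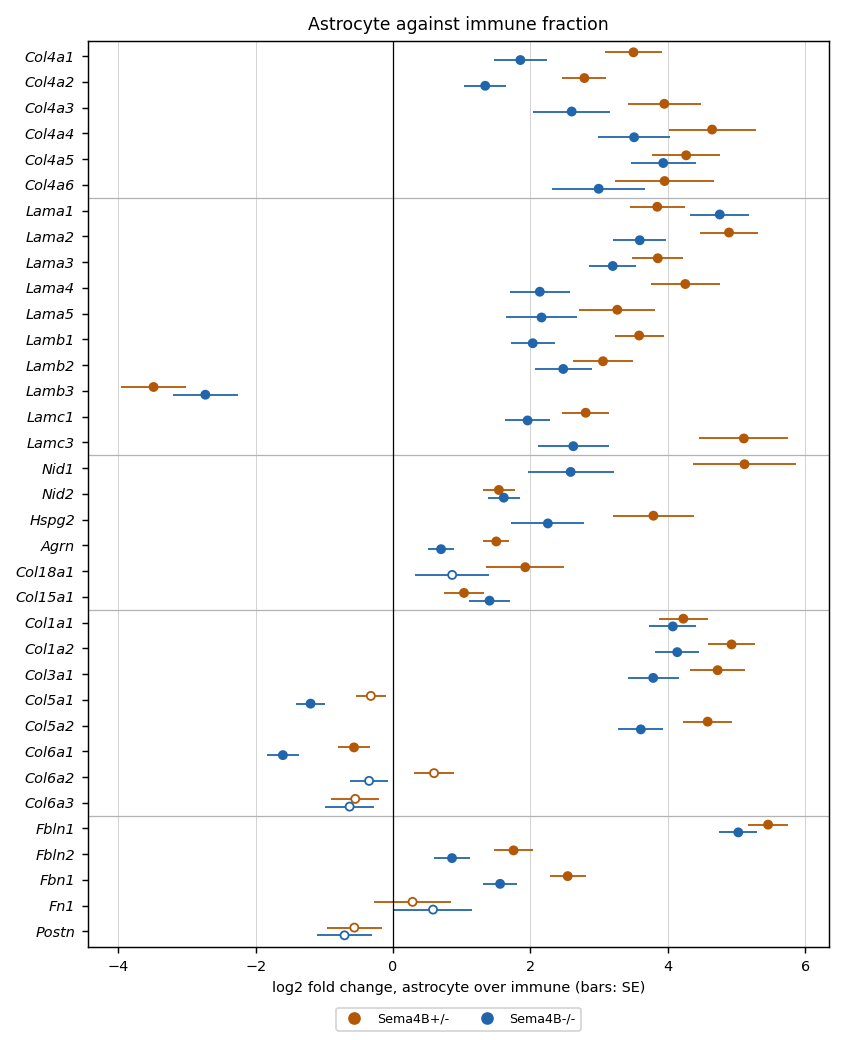
Log2 fold change of the astrocyte over the immune fraction for each member, in Sema4B+/- and in Sema4B-/- mice. Bars are SE, filled points passed an adjusted p under 0.05, open points did not, and the 3 members below 0 and filled in knockouts are Lamb3, Col5a1 and Col6a1.

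Within knockouts, 27 members were higher in the astrocyte fraction, 3 were lower and 5 were not called, beside 29.0% and 30.7% of all genes tested. The members' median was 2.14, or 2.10 with only Col4a3 set at 3 reads in each immune library, against -0.07 over all genes. In both genotypes the same 27 members were higher and the same 2, Lamb3 and Col6a1, were lower. Of the 29 members called in both genotypes, 25 had the smaller absolute difference in knockouts. That count was not made over all genes, so whether it is particular to the members was not tested. The log2 difference of the fractions was 1.85 ± 0.39 in knockouts for Col4a1 beside 3.50 in heterozygotes, 1.34 ± 0.30 beside 2.79 for Col4a2, and 2.59 ± 0.63 beside 5.12 for Nid1. For Col6a1 and Col5a1 it was -1.61 ± 0.23 and -1.20 ± 0.21, beside -0.57 and -0.32. The test of these gaps is that of the difference in genotype effect, given after the genotype comparisons.

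The astrocyte fraction also carried markers of cells that border vessels. Mural cell markers (10 genes) summed to 1009 to 1667 CPM in heterozygous and 756.2 to 1282 CPM in knockout astrocyte libraries, against 36.0 to 126 CPM and 26.5 to 510.4 CPM in the immune libraries. Endothelial markers (10 genes) summed to 177 to 720.3 CPM and 319.5 to 405 CPM in the astrocyte libraries, against 54.4 to 72.0 CPM and 27.5 to 162 CPM. Fibroblast and meningeal markers (9 genes) summed to 219.5 to 278 CPM and 203 to 208 CPM in the astrocyte libraries, against 9.08 to 17.5 CPM and 11.0 to 26.7 CPM. In heterozygotes 7 of 10 mural, 9 of 10 endothelial and 9 of 9 fibroblast markers were called higher in the astrocyte fraction, and 1 mural marker was called lower. In knockouts 6 mural markers were called higher and 3 lower, while the endothelial and fibroblast counts were again 9 and 9 higher. Over all genes tested, 30.0% were called higher and 30.3% lower in heterozygotes, and 29.0% and 30.7% in knockouts. The part of these cells in the difference of the matrix genes was not tested.

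**Figure D3:**
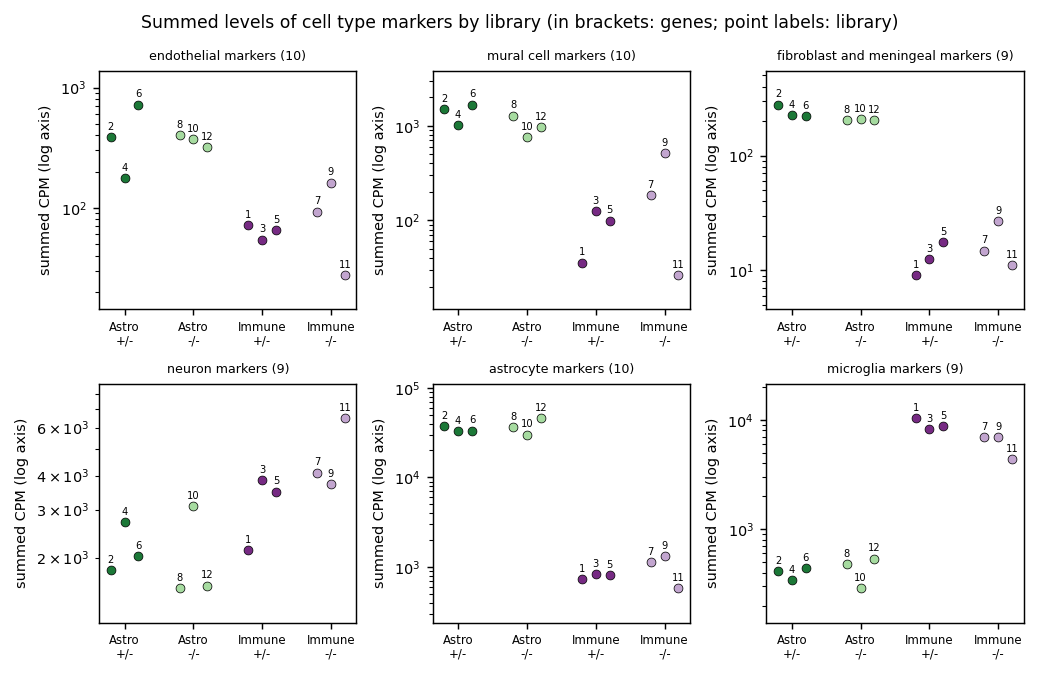
Summed CPM of 6 lists of cell type markers in each library, on log axes, with libraries numbered as in the text. Among the knockout immune libraries, library 9 has the highest mural sum, 510.4 CPM, and library 11 the lowest, 26.5 CPM.

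Knockout was then compared with heterozygote within the astrocyte fraction. Of the 34 members tested, 0 were called at an adjusted p under 0.05, as were 0% of the 15468 genes tested, and the lowest adjusted p of any gene was 0.930 (edgeR). DESeq2 also called 0 members, beside 0% of its genes higher and 0.00483% lower. At an unadjusted p under 0.05, 8 members were lower and 0 higher, beside 2.13% and 1.70% of all genes. The fold change was negative for 31 members and positive for 3, beside 49.3% and 50.7% of all genes, and the members' median was -0.33 against 0.00357 over all genes. In 9 members every knockout library lay below every heterozygous library, and in 0 above, beside 4.89% and 6.04% of all genes. Lamb3 had too few reads to be tested.

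The member with the lowest p was Col4a3, a chain of the type IV network of the glomerulus. It had 23, 26 and 39 reads in heterozygous libraries 2, 4 and 6 and 12, 10 and 12 reads in knockout libraries 8, 10 and 12, without overlap, and edgeR gave a log2 change of -1.43 ± 0.30 (edgeR adjusted p = 0.930). Its head-to-head partner Col4a4 had 52, 34 and 55 reads against 58, 44 and 53. The genotypes thus separated for Col4a3 and overlapped for Col4a4.

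Col4a1 stood at 278, 204 and 256 CPM in heterozygous astrocyte libraries and at 216, 153 and 135 CPM in knockout libraries, of which library 8 lay within the heterozygous range. Its log2 fold change was -0.54 ± 0.19 (edgeR adjusted p = 0.930). Col4a2 stood at 153, 124.5 and 172 CPM against 126, 98.9 and 89.9 CPM, with -0.51 ± 0.16 (edgeR adjusted p = 0.930). The ratio of Col4a1 to Col4a2 reads, 1.501 to 1.715 in knockouts, lay within the heterozygous range of 1.49 to 1.82.

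Of the laminins, Lamc1 stood at 118, 108 and 124 CPM in heterozygotes and at 108, 73.3 and 83.1 CPM in knockouts, with a log2 fold change of -0.40 ± 0.14. Lama2 stood at 77.2, 71.3 and 66.8 CPM against 54.3, 47.0 and 66.7 CPM, with -0.35 ± 0.13. In both genes every knockout library lay below the heterozygous libraries, by a narrow gap. Lama4 had -0.53 ± 0.19, Fbn1 -0.53 ± 0.20 and the type III collagen gene Col3a1 -0.47 ± 0.20, each with an edgeR adjusted p of 0.930.

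The count of 8 members lower at unadjusted p depended on single libraries. It was 2 without heterozygous library 6 (2.5% of all genes lower), 13 without heterozygous library 4 (2.78%) and 5 without knockout library 10 (5.93%). In a fit of all 12 libraries it was 2, beside 1.28% of all genes. Heterozygous libraries 2 and 6 held the highest astrocyte level of 13 and 12 members, and knockout libraries 10, 8 and 12 the lowest of 13, 10 and 8. All 10 endothelial and all 10 mural markers also had a negative fold change in knockout astrocyte libraries, with medians of -0.25 and -0.49 and 0 called, and their part in the matrix values was not tested.

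**Figure D4:**
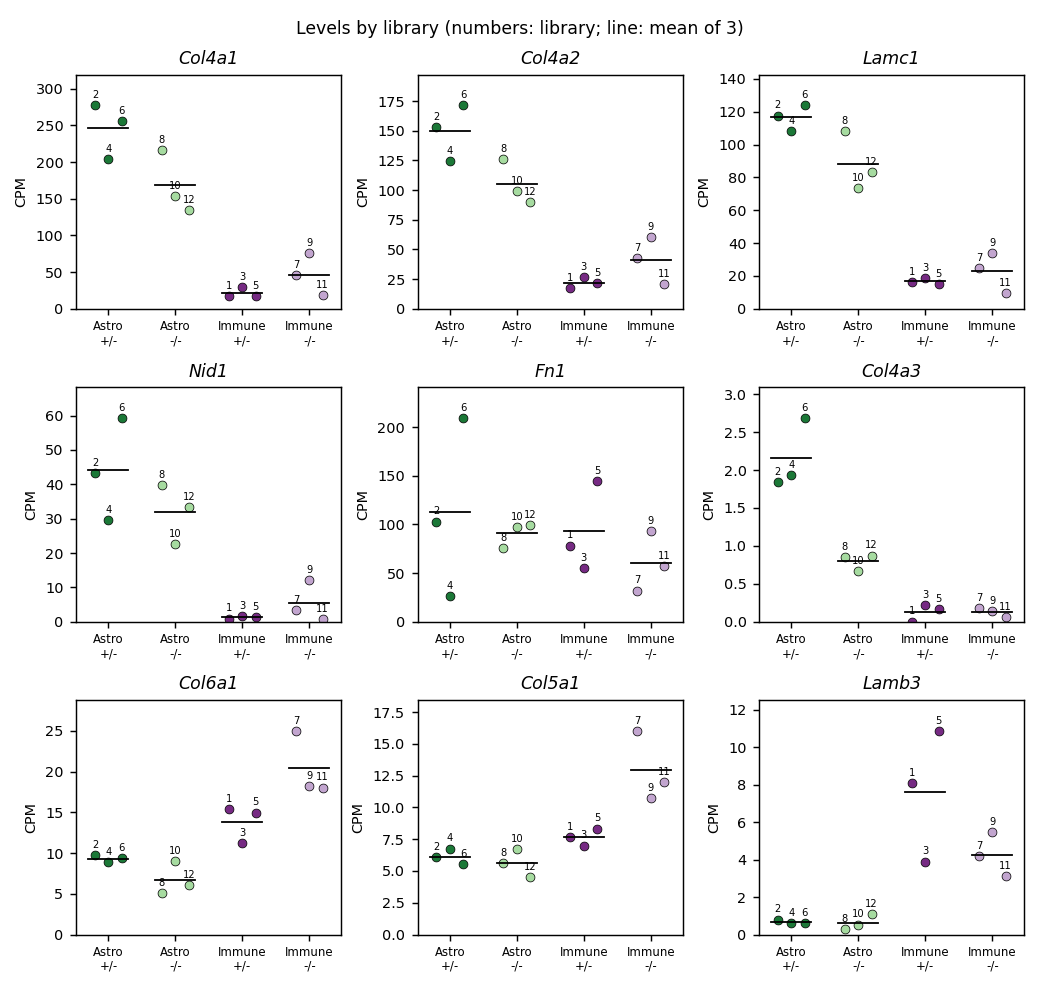
CPM of 9 members in each library, with libraries numbered and the line at the mean of 3. Col4a1 and Col4a2 are lower on average in knockout than in heterozygous astrocyte libraries. Col6a1 and Col5a1 are higher in all knockout than in all heterozygous immune libraries. Fn1 spreads widely in each group except the knockout astrocyte libraries.

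Within the immune fraction 28 members had enough reads to be tested, and the 7 that did not were Col3a1, Col4a3, Col4a4, Col4a5, Col4a6, Lama1 and Lamc3. Of these, Lamc3 had 2 to 8 reads in heterozygous and 8 to 57 reads in knockout immune libraries. The authors' deposited table gave Lamc3 a log2 fold change of 2.28 with an adjusted p of 0.105. For Lama1 that table gave -1.12 with an adjusted p of 0.736. By edgeR 0 members were called in either direction at an adjusted p under 0.05, as were 0% of the 15648 genes tested. DESeq2 called 1 member higher, Col6a2, and 0 lower, beside 2.36% and 0.333% of the 13507 genes to which it gave an adjusted p. At an unadjusted p under 0.05, 9 members were higher in knockouts and 1 lower, beside 9.69% and 4.90% of all genes. The fold change was positive for 22 members and negative for 6, beside 49.6% and 50.4% of all genes, and the members' median was 0.66 against -0.00366.

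In 3 members, Col6a2, Col6a1 and Col5a1, every knockout library was above every heterozygous library, which is 3 of 28 tested beside 9.29% of all genes, a share near the background. Col6a2 stood at 4.42, 3.46 and 3.06 CPM in heterozygous libraries 1, 3 and 5 and at 10.1, 6.77 and 5.51 CPM in knockout libraries 7, 9 and 11. Its log2 fold change was 1.10 ± 0.30 (edgeR adjusted p = 0.227), and DESeq2 gave 1.11 with an adjusted p of 0.0417. The authors' deposited table gave Col6a2 a log2 fold change of 1.11 with an adjusted p of 0.0637. Col6a1, which lies on the same chromosome, stood at 15.4, 11.3 and 14.96 CPM against 25.0, 18.2 and 18.1 CPM, with 0.63 ± 0.21 (edgeR adjusted p = 0.258). Col5a1 stood at 7.69, 7.00 and 8.33 CPM against 16.03, 10.7 and 12.0 CPM, with 0.82 ± 0.23 (edgeR adjusted p = 0.227). Library 7 was the highest in all 3.

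Col15a1, of the linkers, was the 1 member that separated downwards, beside 11.2% of all genes. It stood at 6.54, 7.22 and 9.44 CPM in heterozygotes and 4.61, 4.70 and 4.64 CPM in knockouts, a log2 change of -0.67 ± 0.25 (edgeR adjusted p = 0.282).

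For the basement membrane genes of lowest p, knockout immune library 11 did not follow libraries 7 and 9. Col4a2 stood at 17.3, 26.4 and 21.3 CPM in heterozygotes and 42.9, 60.7 and 20.8 CPM in knockouts, a log2 change of 0.98 ± 0.34 (edgeR adjusted p = 0.266). Lama4 stood at 1.06, 2.67 and 1.87 CPM against 3.84, 10.9 and 2.38 CPM, with 1.64 ± 0.58 (edgeR adjusted p = 0.266). Lamb1 stood at 1.96, 2.45 and 1.62 CPM against 6.15, 4.97 and 2.21 CPM, with 1.19 ± 0.40 (edgeR adjusted p = 0.258). In all 3 genes library 11 lay within the heterozygous range and libraries 7 and 9 above it. Agrn stood at 49.1, 43.4 and 42.7 CPM against 89.0, 65.0 and 48.7 CPM, with 0.65 ± 0.21 (edgeR adjusted p = 0.249), again with library 11 inside the heterozygous range. Nid1 showed the widest spread, at 0.899, 1.59 and 1.27 CPM in heterozygotes and 3.43, 12.1 and 0.638 CPM in knockouts, where library 11 lay below and libraries 7 and 9 above all heterozygous libraries.

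Library 9 held the highest immune level of 16 of the 35 members and library 7 of 10, while library 11 held the highest of 0 and the lowest of 11. Without library 9, 5 members were higher and 2 lower at unadjusted p, beside 10.5% and 5.7% of all genes, and the median was 0.32. Without library 11, 17 were higher and 1 lower, with a median of 0.90, beside 9.49% of all genes higher. Without heterozygous library 1, 5 were higher, beside 5.24% of all genes. The same libraries stood apart in vascular markers. Mural markers summed to 186 CPM in library 7, 510.4 CPM in library 9 and 26.5 CPM in library 11, and endothelial markers to 92.9, 162 and 27.5 CPM. All 10 mural, 10 endothelial, 10 astrocyte and 9 neuron markers had a positive fold change in knockout immune libraries. All 9 microglial, 7 border macrophage, 5 monocyte and 8 neutrophil markers tested had a negative one. Of these 0 were called, as was 0% of all genes. In 7 microglial and 4 border macrophage markers every knockout library lay below every heterozygous library, beside 11.2% of all genes. Microglial markers summed to 8257 to 10400 CPM in heterozygous and 4391 to 6988 CPM in knockout immune libraries. Neuron markers summed to 2133 to 3858 CPM in heterozygous and 3712 to 6508 CPM in knockout immune libraries, highest in library 11. The part of these cells in the matrix values was not tested.

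**Figure D5:**
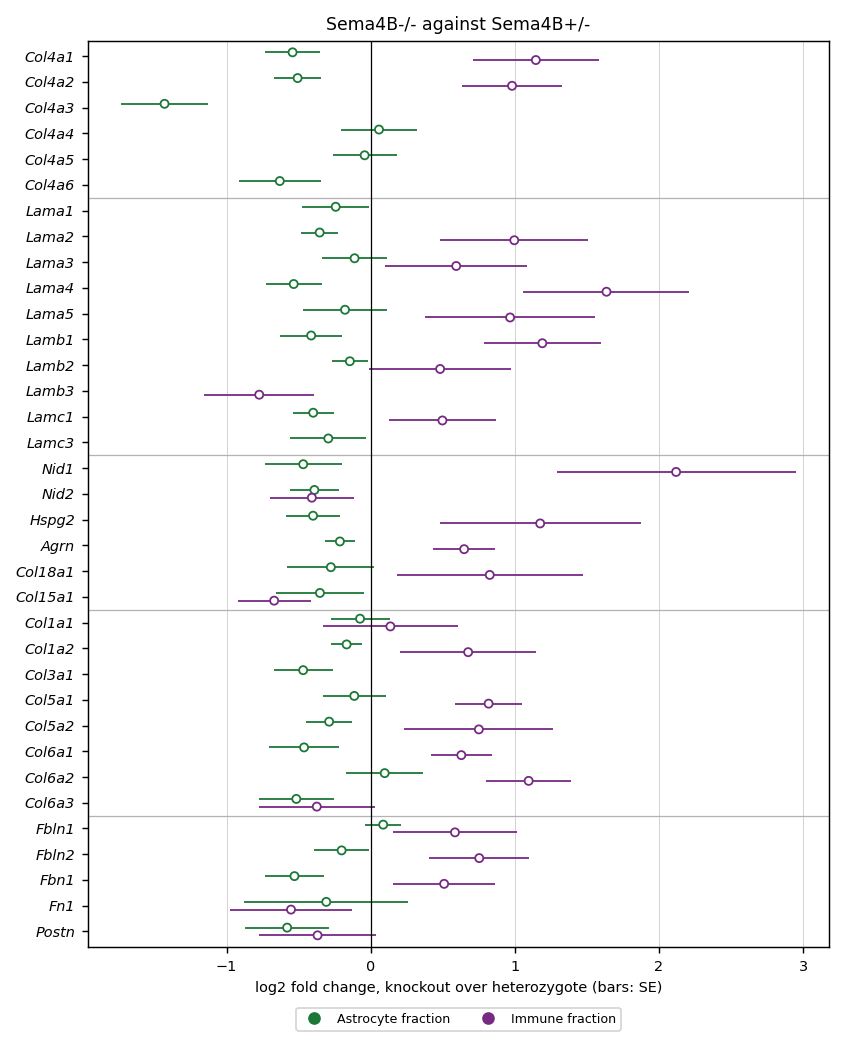
Log2 fold change of Sema4B-/- over Sema4B+/- for each member in the astrocyte and in the immune fraction, with SE bars, and with all points open because 0 passed an adjusted p under 0.05. Members with too few reads in a fraction have no point there. Of the 27 with both points, 20 lie below 0 in the astrocyte and above 0 in the immune fraction. That pattern was not counted over all genes.

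The genotype effects in the 2 fractions were then set against each other in 1 fit of all libraries. Of the 27 members tested in both fractions, 20 had a positive fold change in the immune and a negative one in the astrocyte fraction, 5 were negative in both, 2 were positive in both and 0 showed the reverse. This joint pattern was not counted over all genes, of which 49.6% were positive in the immune and 49.3% negative in the astrocyte fraction. The difference of the effects, astrocyte minus immune, was negative for 30 of 35 members, beside 46.5% of all 16880 genes, with a median of -0.94 against 0.04. At an unadjusted p under 0.05, 13 members were lower and 0 higher, beside 6.32% and 4.06% of all genes. At an adjusted p under 0.05 edgeR called 0 members and 0% of all genes, and DESeq2 also called 0 members, beside 0% of its genes higher and 0.0316% lower. The 4 members with the lowest p were Col4a2 (-1.44 ± 0.43), Lamb1 (-1.55 ± 0.47), Lama4 (-2.12 ± 0.64) and Col6a1 (-1.04 ± 0.32), each with an edgeR adjusted p of 0.475. Over the fits that left out 1 library, the count of lower members ran from 10 to 21. It was 10 without astrocyte library 2, beside 5.4% of all genes, and 21 without immune library 11, beside 7.85%. In the same contrast all 10 mural markers were negative, with a median of -2.02 and 6 at unadjusted p under 0.05, and all 10 endothelial markers were negative, with a median of -1.17 and 0 at that p. Their part in the matrix values was not tested.

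The receptors and enzymes that act on these proteins were more mixed between the fractions than the members. Of 20 matrix receptor genes tested, the astrocyte fraction of heterozygotes had 14 higher and 6 lower, and that of knockouts 11 and 4. Over all genes tested, 30.0% were higher and 30.3% lower in heterozygotes, and 29.0% and 30.7% in knockouts. Itgb8, an integrin beta chain that activates TGF-beta, differed by 4.81 ± 0.27, the syndecan gene Sdc2 by 4.24 ± 0.25 and the collagen receptor gene Ddr1 by 3.71 ± 0.23. The knockout shares of collagen biosynthesis and crosslinking, 34.6% higher and 30.8% lower, were near those of all genes. Of the 26 genes of that list, 12 were higher and 10 lower in heterozygotes, and 9 and 8 in knockouts. Among them the prolyl hydroxylase gene P4ha3 differed by 4.02 ± 0.32, the lysyl oxidase relative Loxl1 by 6.16 ± 0.51 and the transglutaminase gene Tgm2 by -3.37 ± 0.27.

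The shares over all genes, here and for the other collagens, were 30.0% and 30.3% in heterozygotes and 29.0% and 30.7% in knockouts. Of 27 other basement membrane and elastic fibre genes, 21 were called higher in the astrocyte fraction of heterozygotes and 2 lower, and 17 and 4 in knockouts. Efemp1, which encodes fibulin-3, differed by 5.29 ± 0.28 and the Fraser complex gene Frem2 by 5.31 ± 0.33, while Tgfbi, an adhesion protein induced by TGF-beta, differed by -4.34 ± 0.28. Of 20 other collagen genes, 10 were higher and 1 lower, and in knockouts 8 and 4, with Col9a3 at 3.78 ± 0.22, Col16a1 at 2.85 ± 0.19 and Col5a3 at 4.31 ± 0.33 in heterozygotes. All values named here passed an edgeR adjusted p of 0.05.

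For genotype, edgeR called 0 genes of these 4 lists in either fraction, as it did 0% of all genes tested. DESeq2 called 2.36% of its genes higher and 0.333% lower in the immune fraction, and its calls within these lists were not examined. In the immune fraction the integrin beta chain gene Itgb3 had a log2 fold change of -0.91 ± 0.21, Itgb8 1.06 ± 0.31, the latent TGF-beta binding protein gene Ltbp4 0.77 ± 0.17, the basement membrane protein gene Vwa1 0.96 ± 0.24, Tgfbi -0.76 ± 0.23 and Col8a1 1.20 ± 0.39, with edgeR adjusted p between 0.227 and 0.248. In the astrocyte fraction Col16a1 had -0.43 ± 0.11, the integrin alpha chain gene Itga8 -0.66 ± 0.23 and the microfibril gene Mfap4 -0.79 ± 0.26, each with an edgeR adjusted p of 0.930. At unadjusted p under 0.05 in the immune fraction, 5 of 20 receptors, 1 of 24 biosynthesis genes, 6 of 22 other basement membrane genes and 3 of 19 other collagens were higher, beside 9.69% of all genes, and 3, 1, 2 and 0 were lower, beside 4.90%. In the astrocyte fraction 3 of 20, 0 of 25, 3 of 27 and 1 of 18 were lower, beside 2.13% of all genes, and 0 were higher, beside 1.70%.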

How the data were processed

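Per the submitters' processing notes, reads were handled with cutadapt, STAR, HTSeq and DESeq2 on GRCm38, with no versions, strand setting or annotation given. Per the file headers, the 2 deposited tables (1 per fraction, 20776 genes) hold raw counts, whole reads per gene without normalization. The authors' log2 fold changes and p-values in the same deposited tables were used where named. Another 12 columns, of normalized counts, were left out. Column heads number the libraries differently from the sample titles, so columns were mapped to their group only.

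Counts were tested with edgeR 4.0.16 (R 4.3.3): TMM scaling, filterByExpr (count minimum 10, total minimum 15), robust quasi-likelihood F tests, two-sided, Benjamini-Hochberg over all genes tested, threshold 0.05. Genotype was fitted in the 6 libraries of a fraction; fractions, and the difference of the genotype effects, in all 12. SE is the absolute log2 fold change over the square root of F. Levels are CPM on TMM-scaled totals of all 12 libraries. Lengths and overlaps came from GENCODE mouse release 21 (20747 identifiers matched). The test was tested on simulated data. Within-group library pairs differed by a mean chi-square per gene of 10.9 to 79.9 (genes with at least 20 reads per pair), so none was counted as a copy. Total reads were 11111965 to 15993564.

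All members are reported for the fractions, the 8 of lowest p for genotype, 4 for the difference, and at most 3 per other list; other members have levels only. The members and lists were chosen with earlier results of these data known. Alternatives were RLE and upper-quartile scaling, no count filter, DESeq2 1.42.0, fits of other library sets, leaving out each library and, added later, a block of column numbers.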

Additional observations from a re-analysis of the deposited data

How the results depend on the processing

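Under RLE and upper-quartile scaling, no count filter, DESeq2 and fits of other library sets, the members kept their fraction calls. The directions of the members named for genotype were also kept. Genes of the other lists were in these fits, but their results under these settings were not examined. An exception among the members was Col4a3, which was not tested in a fit of knockouts alone. The other exception was the immune genotype comparison, where DESeq2 called 1 member higher (Col6a2) and edgeR 0. Leaving out each library in turn, the members lower in the astrocyte fraction of heterozygotes numbered 1 to 3, and those higher stayed at 28. The share of all genes called at that adjusted p in these fits was not counted. The Fn1 difference between fractions in heterozygotes ran from -0.52 to 0.77, the negative value coming without astrocyte library 6. In heterozygotes Col6a3 was called without immune library 3 (-0.87, edgeR adjusted p = 0.0219). In knockouts Col18a1 was called without immune library 9 (1.91, edgeR adjusted p = 0.00372), and the Fbln2 call was lost without immune library 11 (0.67, edgeR adjusted p = 0.0532). The causes were not tested. A group of 2 after leaving out a library shares its spread with the other groups of the fit. The labels give the groups no shared replicate numbers. A replicate block of consecutive column numbers (1 and 2, 3 and 4, and so on) was chosen after seeing the data. Deviations from the group means correlated across 16880 genes at 0.15, 0.30 and 0.23 within the 3 heterozygous pairs, each library best with its own partner, and at 0.086, -0.39 and -0.023 within the knockout pairs, so these numbers are not taken as pairs. With the block, 1 member (Lamb3) was called lower in heterozygotes, Col6a1 not being called (-0.56, edgeR adjusted p = 0.0755), and the Fn1 difference was -0.030. Of all 16880 genes, 9857 were called in either direction in heterozygotes with the block and 10171 without it. The block changed no other call of a member in the fractions or in the difference of the genotype effects. Depth limits Col4a3, Col4a4, Col4a6 and Lama1 in the immune fraction, with 0 to 8 reads per library. It also limits Col3a1, Col5a2 and Lamc3, with 2 to 6, 3 to 11 and 2 to 8 reads in heterozygous immune libraries.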
